A study of Mus musculus with 3 samples.

Results

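Il33 and Il1rl1 encode an alarmin cytokine and its receptor, and both were followed across every cell class of the perilesional mouse brain. They were chosen by name and are 2 of the 55357 genes listed in each count matrix, each on 1 row. Il33 (ENSMUSG00000024810, chromosome 19) was counted in 2695 TBI+IL-25, 1650 TBI+PBS and 1219 sham cells. Il1rl1 (ENSMUSG00000026069, chromosome 1) was counted in 195 TBI+IL-25, 183 TBI+PBS and 127 sham cells. The cells that held them numbered 13532, 10299 and 8710 in the same libraries.

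Single-cell RNA was counted in left perilesional tissue of male C57BL/6 mice, 6 to 8 weeks old, with a droplet 3′ kit that counts unique molecular identifiers (UMIs). The TBI+IL-25 group had traumatic brain injury (TBI) and received 1 µg of IL-25 per mouse, first within 30 minutes of injury and then daily, for 3 days. The TBI+PBS group had TBI and received phosphate-buffered saline for 3 days. The sham group had no IL-25 or PBS label, and the design text calls it the control group. Each group was 1 library, and the labels used here do not say how many mice went into one. Every difference below therefore compares libraries, not conditions, and has no replicate check. No test was possible, and the 95% intervals cover counting error only.

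IL-33 is a cytokine of the IL-1 family that is stored in the nucleus and released when a cell is damaged. It binds ST2, the product of Il1rl1, which pairs with the shared co-receptor encoded by Il1rap and signals through MyD88, IRAK kinases and TRAF6. Type 2 innate lymphoid cells, regulatory T cells, mast cells and some macrophages are known to respond to it. In the brain, oligodendrocytes and astrocytes are known sources and microglia a known target. Il1rl1 also gives a soluble decoy form of ST2. The GENCODE annotation at hand lists 5 transcripts with 5 different 3′ ends for each gene, and the UMI counts sum them, so membrane and soluble receptor cannot be told apart.

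The count matrices totalled 61372408 UMIs in 14222 TBI+IL-25 barcodes, 58148289 UMIs in 10643 TBI+PBS barcodes and 39536447 UMIs in 8939 sham barcodes. The median depth per kept cell was 3841 UMIs in TBI+IL-25, 4666 in TBI+PBS and 4111 in sham. The TBI+IL-25 library stood apart in haemoglobin genes, at 0.147 CPM (UMIs per 1000000 UMIs) against 111 in TBI+PBS and 98.9 in sham, and in its Cell Ranger version, so library and treatment cannot be told apart. The ribosomal RNA genes Rn18s-rs5 and AY036118 took 0.793% of its UMIs, against 0.0461% in TBI+PBS and 0.0374% in sham, and the part of this in the Il33 differences was not tested. Between 24 and 39 barcodes were shared by each pair of libraries. Classes are called "like" because they were named here from marker genes. The oligodendrocyte-like, astrocyte-like and microglia-like classes each expressed 10 of 10 of their markers. Cluster 6, with 2036 of its 2600 cells from sham, also held 10 of 10 microglia markers but stayed unnamed under the naming rule, and is given apart. Microglia-like cluster 15, with 502 cells, met the naming rule with 6 of the 10 microglia markers.

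Both genes have more than 1 annotated start, and the 2 RefSeq promoter windows listed for each are shown because the genes were counted in different cell classes. The windows run from 250 bases before to 50 bases after a start, on the plus strand of GRCm38.p6, which is not the build used for counting. For Il33 they are chr19:29924863-29925162 (upstream start) and chr19:29945540-29945839 (downstream start). For Il1rl1 they are chr1:40429320-40429619 (upstream start) and chr1:40439379-40439678 (downstream start). Capitals mark matches to the motifs searched.
Il33 upstream start: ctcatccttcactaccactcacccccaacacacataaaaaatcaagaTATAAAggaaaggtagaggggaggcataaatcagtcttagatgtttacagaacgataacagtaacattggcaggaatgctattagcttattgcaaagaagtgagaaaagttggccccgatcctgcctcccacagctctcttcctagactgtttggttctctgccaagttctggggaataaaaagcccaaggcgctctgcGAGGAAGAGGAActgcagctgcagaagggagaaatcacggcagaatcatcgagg
Il33 downstream start: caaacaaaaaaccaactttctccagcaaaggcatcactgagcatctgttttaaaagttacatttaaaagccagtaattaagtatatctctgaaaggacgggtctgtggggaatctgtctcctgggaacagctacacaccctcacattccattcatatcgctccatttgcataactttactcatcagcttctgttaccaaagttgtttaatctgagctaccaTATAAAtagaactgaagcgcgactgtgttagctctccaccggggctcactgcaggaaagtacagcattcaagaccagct
Il1rl1 upstream start: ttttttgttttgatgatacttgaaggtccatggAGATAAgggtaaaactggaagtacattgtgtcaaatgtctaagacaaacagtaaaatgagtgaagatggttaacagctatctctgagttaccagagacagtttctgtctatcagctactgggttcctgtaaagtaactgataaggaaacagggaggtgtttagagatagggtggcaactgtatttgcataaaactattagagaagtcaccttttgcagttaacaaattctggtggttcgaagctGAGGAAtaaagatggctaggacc
Il1rl1 downstream start: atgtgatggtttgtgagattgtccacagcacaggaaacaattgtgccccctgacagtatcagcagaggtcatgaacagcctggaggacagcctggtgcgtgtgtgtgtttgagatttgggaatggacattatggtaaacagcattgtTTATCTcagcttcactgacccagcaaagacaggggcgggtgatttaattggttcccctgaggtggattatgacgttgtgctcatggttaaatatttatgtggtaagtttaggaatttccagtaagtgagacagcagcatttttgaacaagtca

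Both strands were searched, and no match overlapped another. The AP-1 motif TGANTCA is present in 7.81% of 32851 RefSeq windows of the same length, and the SOX motif ACAAAG in 18.7%. The motif AGATAA of GATA factors is present in 11.2%, the motif GAGGAA of PU.1, a factor of myeloid cells, in 28.3%, and the TATA box TATAAA in 13.6%. The upstream Il33 window held 1 TATA box match and a pair of adjoining PU.1 matches, and the downstream one held a TATA box match at position -29 from the start. The upstream Il1rl1 window held 1 GATA factor match and 1 PU.1 match. The downstream Il1rl1 window held 1 GATA factor match, on the minus strand. The AP-1 and SOX motifs had no match in any of the windows, which says only that these letters are not there.

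Il33 was highest in oligodendrocyte-like cells in all 3 libraries, and there it stood far higher in TBI+IL-25 than in either other library. Over all cells Il33 stood at 218 CPM in TBI+IL-25, 85.3 CPM in TBI+PBS and 55.9 CPM in sham. The TBI+IL-25 over TBI+PBS ratio was 2.56 (95% interval 2.47 to 2.65), TBI+IL-25 over sham 3.91 (3.73 to 4.09) and TBI+PBS over sham 1.53 (1.45 to 1.61). The class that carried most of the transcript differed between libraries. Oligodendrocyte-like cells held 71.5% of all Il33 UMIs in TBI+IL-25, 42.5% in TBI+PBS and 16.5% in sham. Astrocyte-like cells held 26.5% in TBI+IL-25, 54.4% in TBI+PBS and 80.9% in sham.

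In oligodendrocyte-like cells, the myelin-forming glia, Il33 stood at 3148 CPM in TBI+IL-25 (3082 to 3214), 920 CPM in TBI+PBS (880 to 961) and 756 CPM in sham (679 to 840). None of these intervals overlapped. They rest on 8775 UMIs in 643 TBI+IL-25 cells, 2005 UMIs in 217 TBI+PBS cells and 348 UMIs in 45 sham cells. Il33 was 3.42-fold higher in TBI+IL-25 than in TBI+PBS (3.26 to 3.59), where 6.23% of the 10533 genes tested in this class were at least 2-fold higher. Against sham, TBI+IL-25 was 4.16-fold higher (3.74 to 4.65), where 16.0% of 9470 genes tested were at least 2-fold higher. In those comparisons 7.65% and 8.47% of genes were at least 2-fold lower. TBI+PBS was 1.22-fold higher than sham (1.09 to 1.37), short of 2-fold, where 10.4% of 9155 genes were at least 2-fold higher and 2.8% at least 2-fold lower. The class itself made up 4.75% of kept cells in TBI+IL-25, 2.11% in TBI+PBS and 0.517% in sham.

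**Figure D1:**
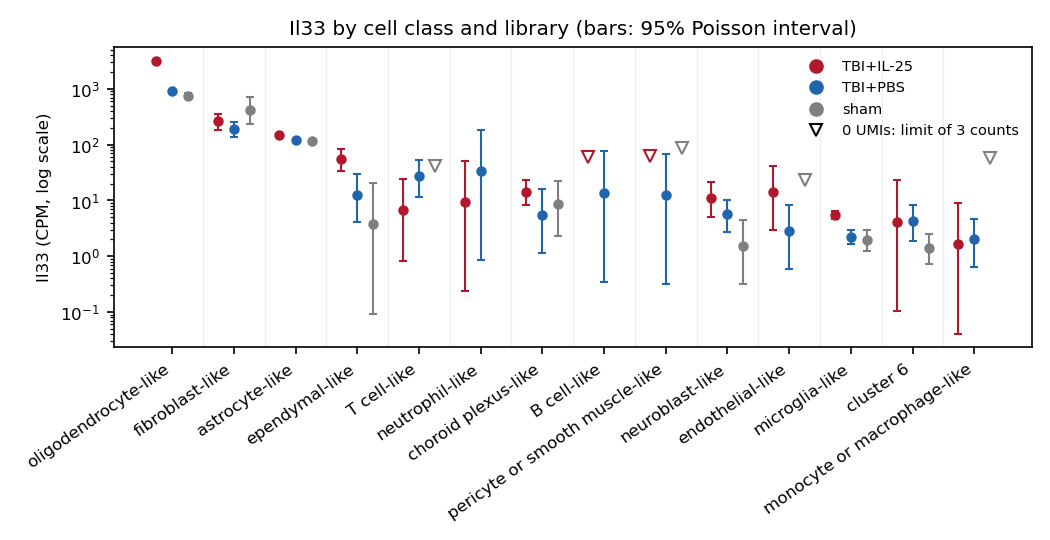
Il33 level by cell class (horizontal axis) in CPM on a log scale (vertical axis); points are library sums in TBI+IL-25, TBI+PBS and sham, bars are 95% Poisson intervals, and open triangles are the limit of 3 counts where no UMI was counted. Oligodendrocyte-like cells are highest in each library, at 3148, 920 and 756 CPM, and astrocyte-like cells stand at 150, 122 and 116 CPM.

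The share of oligodendrocyte-like cells with an Il33 UMI was 91.8% in TBI+IL-25, 65.9% in TBI+PBS and 71.1% in sham. Depth ran the other way, with a median of 3913 UMIs per cell in TBI+IL-25, 8400 in TBI+PBS and 10264 in sham. With every cell thinned to 1000 UMIs, leaving out 38, 4 and 0 cells, the share was 76.9% in TBI+IL-25 (73.3% to 80.2%), 40.4% in TBI+PBS (33.7% to 47.3%) and 31.1% in sham (18.2% to 46.6%). Thinning thus kept TBI+IL-25 apart from both other libraries, while TBI+PBS and sham overlapped. For comparison, the share of microglia-like cells with an Il33 UMI, at median depths of 4765, 4908 and 3782 UMIs, was 2.69% in TBI+IL-25, 1.24% in TBI+PBS and 0.743% in sham, or 0.623%, 0.222% and 0.173% after thinning.

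Most oligodendrocyte-like cells of TBI+IL-25 held several Il33 UMIs, with a median of 7 per cell and quartiles of 3 and 17. In TBI+PBS the median was 3, with quartiles of 0 and 10. In sham the median was 3, with quartiles of 0 and 11. Per cell with Il33, the mean was 14.9 UMIs in TBI+IL-25, 14.0 in TBI+PBS and 10.9 in sham. The TBI libraries were thus close in UMIs per positive cell, at the different depths given above. The part of depth in the CPM ratio was not tested. Cells with at least 10 Il33 UMIs were 280 of 643 in TBI+IL-25 (43.5%), 57 of 217 in TBI+PBS (26.3%) and 12 of 45 in sham (26.7%). A few cells carried much of the sum outside TBI+IL-25: the 5 cells with most Il33 held 10.1% of the class's Il33 UMIs in TBI+IL-25, 27.1% in TBI+PBS and 52.6% in sham. The highest single cells held 337 UMIs in TBI+IL-25, 160 in TBI+PBS and 61 in sham. Without the highest 5% of cells in each library (32, 11 and 2 cells), a setting chosen after the values were seen, TBI+IL-25 was 4.24-fold above TBI+PBS (3.98 to 4.52) and 4.33-fold above sham (3.81 to 4.94). TBI+PBS over sham was then 1.02 (0.889 to 1.18), an interval that included 1.

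**Figure D2:**
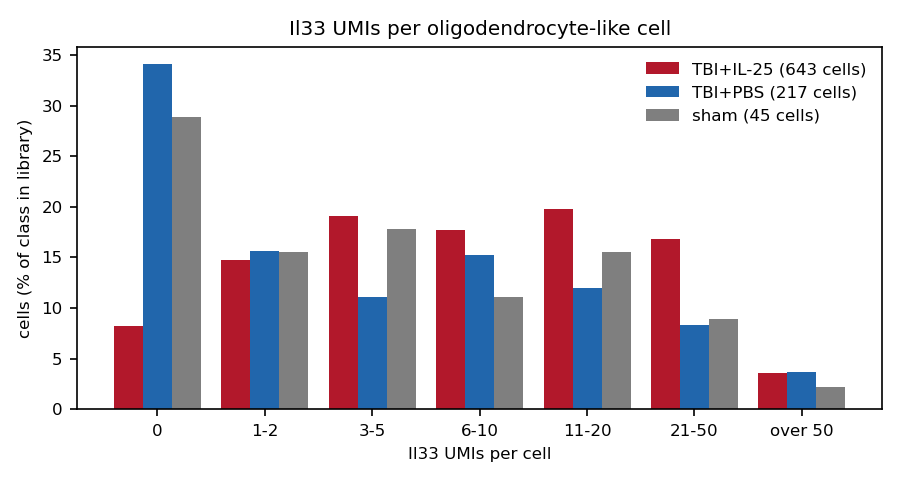
Percent of the oligodendrocyte-like cells of each library (vertical axis) by number of Il33 UMIs per cell (horizontal axis), in 643 TBI+IL-25, 217 TBI+PBS and 45 sham cells. Cells with no Il33 UMI are 8.24% in TBI+IL-25, 34.1% in TBI+PBS and 28.9% in sham.

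Oligodendrocyte marker transcripts ran opposite to Il33. The summed level of the 10 oligodendrocyte markers stood at 39364 CPM in TBI+IL-25, 64806 CPM in TBI+PBS and 81351 CPM in sham. Of 8 markers of oligodendrocyte precursors, 6 were detected in TBI+IL-25, 5 in TBI+PBS and 3 in sham, and Pdgfra and C1ql1 were at 0 in all 3 libraries. The 8 summed to 930 CPM in TBI+IL-25, 1295 CPM in TBI+PBS and 1504 CPM in sham. In sham that sum came from Olig1, Olig2 and Sox10 alone, with Cspg4, Gpr17 and Vcan also at 0. The number detected fell with the UMIs of the class, 2787730 in TBI+IL-25, 2178920 in TBI+PBS and 460165 in sham. It therefore cannot show a difference in precursors. Microglia markers within the class summed to 980 CPM in TBI+IL-25, 1222 CPM in TBI+PBS and 676 CPM in sham, with 10 of 10 detected in each, and astrocyte markers to 746, 814 and 1310 CPM. Without the 26, 20 and 2 cells that held 10 or more microglia marker UMIs, Il33 was 3.22-fold higher in TBI+IL-25 than in TBI+PBS.

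Oligodendrocyte-like cells with Klk6 (a serine protease) or Hopx (a homeodomain protein), which mark a subset of mature oligodendrocytes, differed in Il33 between libraries. This split was chosen after the values were seen. Among cells with 2 or more UMIs of the pair, Il33 stood at 3623 CPM in 103 TBI+IL-25 cells, 859 CPM in 70 TBI+PBS cells and 175 CPM in 6 sham cells. Of those cells, 90.3% held Il33 in TBI+IL-25, 38.6% in TBI+PBS and 33.3% in sham. Among cells with neither gene, Il33 stood at 2850 CPM in 471 TBI+IL-25 cells, 893 CPM in 132 TBI+PBS cells and 982 CPM in 34 sham cells. In the cells with neither gene TBI+IL-25 was again above both, 3.19-fold above TBI+PBS (2.97 to 3.43) and 2.90-fold above sham (2.59 to 3.26). The TBI+PBS over sham ratio there was 0.909 (0.800 to 1.04), below 1 with an interval that included it.

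Within the class, oligodendrocyte-like cells that held Il33 were set against those that did not. Enough cells of each kind were present in TBI+IL-25 (590 with and 53 without) and TBI+PBS (143 with and 74 without), but not in sham. In both libraries 308 genes had a ratio whose interval lay above 1, and the 10 with the highest lower bounds are described. The number of genes examined is not reported here, for this or the other classes, so such counts cannot be read as many or few. With cells thinned to 1000 UMIs before the split, 52 genes had such a ratio, and 5 of its leading 10 were among those 10. Gadd45b, a stress-induced growth arrest gene, stood at 1465 CPM with and 113 CPM without Il33 in TBI+IL-25, a ratio of 12.97 (7.98 to 22.7). In TBI+PBS it stood at 203 CPM with and 21.6 CPM without Il33, a ratio of 9.40 (5.84 to 16.1). Serpina3n, a serine protease inhibitor of reactive glia, stood at 575 CPM with and 77.6 CPM without Il33 in TBI+IL-25, and at 429 and 48.0 CPM in TBI+PBS. Both genes were thus denser in Il33-positive cells of each injured library.

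The other leading genes were Rhoj (a small GTPase), with ratios of 6.79 in TBI+IL-25 and 8.75 in TBI+PBS, and Flnc (filamin C), with 7.12 and 10.5. Cells without Il33 held 6 and 9 UMIs of Rhoj and 4 and 2 of Flnc, so these ratios are imprecise. The Flnc intervals were 2.76 to 26.2 and 2.70 to 90.5. Cd63, a tetraspanin of late endosomes, had ratios of 3.44 in TBI+IL-25 and 5.93 in TBI+PBS. Mt1 (a metallothionein) had 3.11 and 3.24, Add3 (adducin) 3.79 and 3.605, and Irf2bpl 4.69 and 4.47 in the same order. Gpd1, glycerol-3-phosphate dehydrogenase, had ratios of 14.7 in TBI+IL-25 (5.71 to 53.9, on 4 UMIs without Il33) and 3.02 in TBI+PBS. Mvp, the major vault protein, stood at 58.0 CPM in Il33-positive TBI+IL-25 cells and was not counted in the 53 negative ones, and its TBI+PBS ratio was 4.09. In the opposite direction, S100b stood at 55.7 CPM with and 381 CPM without Il33 in TBI+IL-25, and at 64.7 and 1222 CPM in TBI+PBS. Hopx had ratios of 0.259 in TBI+IL-25 and 0.0302 in TBI+PBS. Padi2 (a peptidylarginine deiminase) had 0.242 and 0.233, Uchl1 (a ubiquitin hydrolase) 0.181 and 0.0587, and Nkx2-9 (a homeobox factor) 0.181 and 0.0178.

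**Figure D3:**
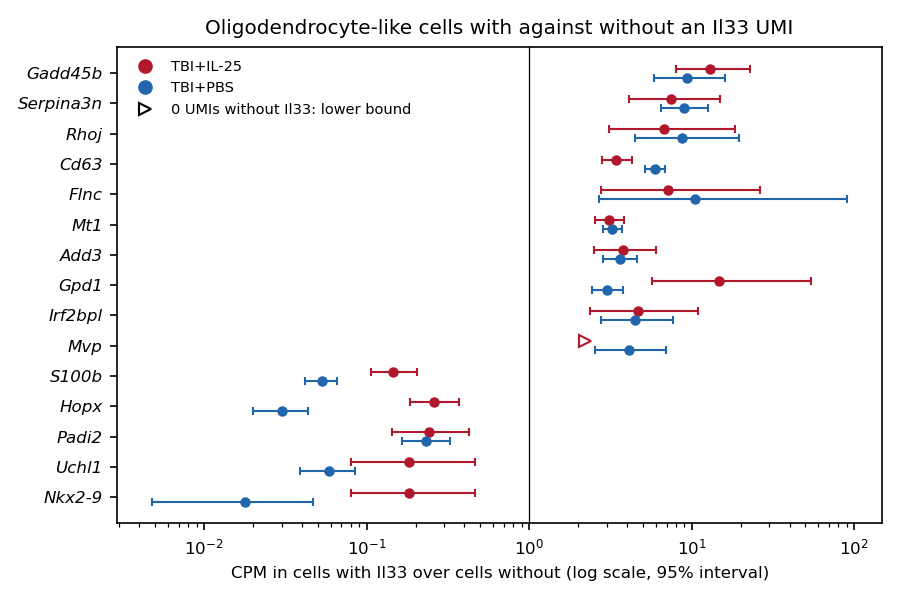
CPM ratio of cells with over cells without an Il33 UMI (horizontal axis, log scale) for the leading genes named in the text (vertical axis), in oligodendrocyte-like cells of TBI+IL-25 and TBI+PBS; bars are 95% exact intervals. Gadd45b lies at 12.97 and 9.40 and S100b at 0.146 and 0.0530.

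Astrocyte-like cells formed the larger source by cell number, and their Il33 level differed little between libraries. It was 150 CPM in TBI+IL-25 (145 to 155; 3252 UMIs in 6686 cells), 122 CPM in TBI+PBS (118 to 127; 2564 UMIs in 4523 cells) and 116 CPM in sham (111 to 122; 1711 UMIs in 3285 cells). TBI+IL-25 was 1.22-fold higher than TBI+PBS (1.16 to 1.29) and 1.29-fold higher than sham (1.22 to 1.37), while TBI+PBS over sham was 1.06 (0.993 to 1.12). The share of cells with an Il33 UMI was 28.6%, 31.2% and 34.8% in TBI+IL-25, TBI+PBS and sham. Thinned to 1000 UMIs, which left out 1234, 656 and 445 cells, it was 12.8% (11.9% to 13.7%), 9.67% (8.76% to 10.6%) and 11.4% (10.3% to 12.7%). The unthinned order thus followed the median depth of 2958, 4328 and 4511 UMIs rather than the level.

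The astrocyte-like class held different clusters in each library, and Il33 differed more between clusters than between libraries. Cluster 3, marked by Il11, Lif and Fosl1, held 2795 of the TBI+IL-25 cells and 56 of the TBI+PBS cells. Cluster 9, marked by Col5a3, held 63 of the TBI+IL-25 cells and 1218 of the TBI+PBS cells. Cluster 7 held 1480 of the 3285 sham cells. Il33 was highest in cluster 10, whose cells express Lcn2, the iron-binding lipocalin of reactive astrocytes, at 839 CPM in TBI+IL-25 and 1618 CPM in TBI+PBS. There Il33 stood at 363 CPM in 564 TBI+IL-25 cells (337 to 389) and 324 CPM in 531 TBI+PBS cells (303 to 345), with 2 sham cells in the cluster. Its thinned share was 27.3% in TBI+IL-25 (23.3% to 31.7%) and 21.3% in TBI+PBS (17.5% to 25.5%). No other astrocyte-like cluster exceeded 206 CPM in any library. Microglia markers in cluster 10 summed to 1189 CPM in TBI+IL-25 and 1567 CPM in TBI+PBS, against 646 and 1058 CPM over the whole class.

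Clusters 3 and 9 were not the ones with most Il33. Il33 stood at 125 CPM in TBI+IL-25 (119 to 132) and 72.3 CPM in TBI+PBS (44.7 to 110) in cluster 3. In cluster 9 it stood at 133 CPM in TBI+IL-25 (93.3 to 183) and 90.2 CPM in TBI+PBS (84.1 to 96.8). Cluster 27, with 31 TBI+PBS cells, stood at 29.3 CPM (7.98 to 74.99).

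Clusters with 100 or more cells in each library allowed a comparison within a cluster, chosen after the data were seen. In cluster 1, astrocytes with Agt (angiotensinogen), Il33 stood at 115 CPM in TBI+IL-25, 92.8 CPM in TBI+PBS and 113 CPM in sham. In cluster 7 it stood at 126, 84.9 and 109 CPM, in cluster 12 at 126, 96.3 and 132 CPM, and in cluster 2, a shallow cluster, at 172, 132 and 206 CPM in the same order. TBI+PBS was below sham in each of the 4, with ratios of 0.820, 0.778, 0.730 and 0.639 and every interval below 1, whereas the ratio over the whole class lay above 1 with an interval that included it. TBI+IL-25 was above TBI+PBS in each, with ratios of 1.24, 1.49, 1.31 and 1.30 and every interval above 1. TBI+IL-25 over sham was 1.01, 1.16, 0.958 and 0.834. Cells of 1 cluster still differed between libraries in reactive astrocyte markers, which summed to 222, 580 and 53.0 CPM in cluster 1, 798, 780 and 133 CPM in cluster 7, 1998, 774 and 210 CPM in cluster 12 and 3535, 2554 and 191 CPM in cluster 2 in TBI+IL-25, TBI+PBS and sham. Their part in these ratios was not tested. Cluster 10, with 2 sham cells, held 895 of the 2564 Il33 UMIs of the class in TBI+PBS. Over the class, 7.26% of 16567 genes were at least 2-fold higher and 6.2% at least 2-fold lower in TBI+PBS than in sham.

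**Figure D4:**
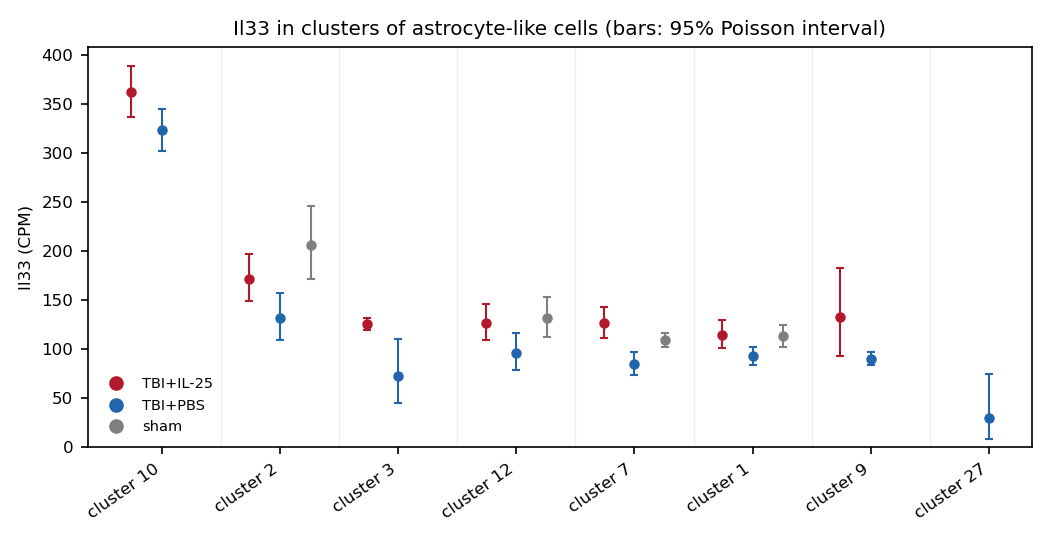
Il33 level in CPM (vertical axis) in each astrocyte-like cluster (horizontal axis) with at least 20 cells in a library; points are library sums in TBI+IL-25, TBI+PBS and sham and bars are 95% Poisson intervals. Cluster 10 is highest, at 363 CPM in TBI+IL-25 and 324 CPM in TBI+PBS, and TBI+PBS lies below sham in clusters 1, 2, 7 and 12.

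Astrocyte-like cells with Il33 (1915 in TBI+IL-25, 1412 in TBI+PBS and 1144 in sham) differed only slightly from those without. In all 3 libraries 58 genes had intervals above 1, and 8 did after thinning. The leading 10 were Runx1, Lrtm2, Spred1, Cx3cr1, Gpr183, Snx10, P2ry12, Klf6, Pou2f2 and St6galnac5. Runx1, a Runt transcription factor, had ratios of 1.55 in TBI+IL-25, 1.87 in TBI+PBS and 1.73 in sham. Spred1, an inhibitor of Ras signalling, had 1.16, 1.25 and 1.18, and Lrtm2 had 1.19, 1.44 and 1.29. Cx3cr1, the fractalkine receptor of microglia, had ratios of 1.20, 1.32 and 1.43, and P2ry12, a microglial purinergic receptor, 1.36, 1.22 and 1.16. These are microglia markers, whose part in the result was not tested; the 10 microglia markers summed to 646, 1058 and 1340 CPM in the class. Gpr183, an oxysterol receptor, had ratios of 1.85, 1.53 and 1.65, and Pou2f2, a POU factor, 1.59, 1.61 and 1.40. Runx1, Gpr183 and Pou2f2 were counted in few Il33-positive cells, 2.40%, 1.46% and 2.04% in TBI+IL-25 and at most 4.89% in any library. In TBI+IL-25, 1 cell held 15.8%, 11.1% and 12.7% of their UMIs in positive cells. The part of microglia RNA in their ratios was not tested either. Snx10 had 1.18, 1.26 and 1.22, Klf6 1.11, 1.12 and 1.37, and St6galnac5 1.14, 1.20 and 1.30. Lower in the Il33-positive cells were Meg3 (a noncoding RNA; 0.419, 0.289 and 0.112) and Slc38a1 (a glutamine transporter; 0.568, 0.413 and 0.369). Agt was also lower, at 0.679, 0.726 and 0.761, and Itih3 at 0.714, 0.760 and 0.774.

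Fibroblast-like cells ranked above astrocyte-like cells in the injured libraries, on few cells. Il33 stood at 262 CPM in 25 TBI+IL-25 cells (184 to 360), 190 CPM in 23 TBI+PBS cells (139 to 252) and 425 CPM in 7 sham cells (233 to 714). TBI+PBS was 0.446-fold the sham level (0.241 to 0.877), where 11.0% of 2766 genes tested were at least 2-fold lower. With cells weighed equally in place of their summed UMIs, the levels were 408 CPM in TBI+IL-25, 404 CPM in TBI+PBS and 320.0 CPM in sham, so the direction between TBI+PBS and sham turned. TBI+IL-25 over TBI+PBS was 1.38 (0.871 to 2.17) and over sham 0.615 (0.325 to 1.23). In those comparisons 6.49% and 29.1% of genes were at least 2-fold higher, and 9.23% and 11.7% at least 2-fold lower. The Il33 that free RNA would give these cells, estimated from the markers of other classes, was 36.9 CPM in TBI+IL-25, 9.47 CPM in TBI+PBS and 0 CPM in sham. In ependymal-like cells, the ciliated lining of the ventricles, Il33 stood at 54.7 CPM in 49 TBI+IL-25 cells, 12.6 CPM in 29 TBI+PBS cells and 3.71 CPM in 15 sham cells, from 20, 5 and 1 UMIs. The TBI+IL-25 over TBI+PBS ratio was 4.35 (1.58 to 14.8), where 4.75% of 6698 genes tested were at least 2-fold higher. TBI+IL-25 over sham was 14.7 (2.36 to 610), where 5.62% of genes were. Of the 20 UMIs, 11 were in 1 cell, and without the highest cell of each library TBI+IL-25 over TBI+PBS was 2.47 (0.688 to 11.0), an interval that included 1, while sham had no UMI left. The share of cells with a UMI was 16.3% in TBI+IL-25, 17.2% in TBI+PBS and 6.67% in sham. TBI+PBS and sham levels there rest on 5 and 1 UMIs, and 6.9% of 6303 genes were at least 2-fold higher and 6.87% at least 2-fold lower between them.

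Other classes held little Il33. Choroid plexus-like cells stood at 14.3, 5.52 and 8.63 CPM in TBI+IL-25, TBI+PBS and sham, neuroblast-like cells at 11.1, 5.66 and 1.52 CPM, and endothelial-like cells at 14.2, 2.85 and 0 CPM. Endothelial cells thus had 3, 3 and 0 Il33 UMIs in 49, 220 and 36 cells. T cell-like cells stood at 6.81, 27.1 and 0 CPM, from 2, 8 and 0 UMIs. In TBI+IL-25 the order oligodendrocyte-like, fibroblast-like, astrocyte-like, ependymal-like held with no overlap of neighbouring intervals, and from there on neighbours overlapped. In TBI+PBS the first 3 classes were separate in the same way. In sham, among classes with 20 or more cells, oligodendrocyte-like and astrocyte-like cells were separate and the rest overlapped.

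Microglia-like cells stood at 5.49 CPM of Il33 in TBI+IL-25 (4.65 to 6.43), 2.24 CPM in TBI+PBS (1.67 to 2.93) and 1.98 CPM in sham (1.24 to 2.99). TBI+IL-25 was 2.45-fold above TBI+PBS (1.78 to 3.43), where 6.43% of 15264 genes tested were at least 2-fold higher, and 2.78-fold above sham (1.77 to 4.56), where 11.9% of 14883 were. These levels moved with the Il33 of the whole library, at 218, 85.3 and 55.9 CPM. The Il33 that free RNA would give these cells, estimated from the markers of other classes found in them, was 6.13 CPM in TBI+IL-25, 2.23 CPM in TBI+PBS and 2.04 CPM in sham. Each estimate lay within the interval of the measured level. With classes named cell by cell the level was 12.1, 4.55 and 3.602 CPM in the same order, and with doublets kept 10.7, 3.86 and 2.48 CPM, all above those estimates. Whether free RNA or doublets gave this level was not tested. Cluster 6 stood at 4.12, 4.26 and 1.41 CPM, from 1, 8 and 12 UMIs.

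Genes that went with Il33 in microglia-like cells included several known from astrocytes. Among 147 TBI+IL-25, 51 TBI+PBS and 22 sham positive cells, 12 genes had intervals above 1 in all 3 libraries. Mt3, a brain metallothionein, had ratios of 2.16 in TBI+IL-25, 3.41 in TBI+PBS and 2.82 in sham. Clu (clusterin) had 2.38, 1.96 and 2.64, Plpp3 2.67, 2.47 and 3.59, and Sparcl1 2.01, 2.58 and 2.85. Igfbp2 had 2.31, 4.76 and 6.65, Tmem47 3.16, 3.49 and 5.95, and Spry2 2.40, 4.64 and 8.86, with all sham Spry2 UMIs of positive cells in 1 cell. Mt1 had 1.19, 1.70 and 1.90, and Ccl4, a microglial chemokine, 1.09, 1.24 and 2.18.

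Il1rl1 was found mostly in microglia-like cells, at a low level that did not differ between libraries beyond counting error. Over all cells it stood at 3.74 CPM in TBI+IL-25 (210 UMIs), 3.68 CPM in TBI+PBS (203 UMIs) and 3.78 CPM in sham (143 UMIs). In microglia-like cells, the resident phagocytes of the brain, it stood at 7.004 CPM in TBI+IL-25 (6.05 to 8.06), 7.83 CPM in TBI+PBS (6.73 to 9.05) and 6.47 CPM in sham (5.06 to 8.15), and these intervals overlapped. TBI+IL-25 over TBI+PBS was 0.895 (0.727 to 1.10), TBI+IL-25 over sham 1.08 (0.822 to 1.44) and TBI+PBS over sham 1.21 (0.916 to 1.61). Between TBI+IL-25 and TBI+PBS, 4.19% of genes in this class were at least 2-fold lower.

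Of all Il1rl1 UMIs, microglia-like cells held 92.4% in TBI+IL-25, 89.7% in TBI+PBS and 50.3% in sham. Most of the remainder in sham was in cluster 6, which held 47.6% there. Cluster 6 had 0 Il1rl1 UMIs in 75 TBI+IL-25 cells, which allows up to 12.3 CPM, and stood at 5.33 CPM in TBI+PBS (2.55 to 9.80; 489 cells) and 8.01 CPM in sham (6.22 to 10.1; 2036 cells). Together microglia-like cells and cluster 6 held 185 of 195 Il1rl1-positive TBI+IL-25 cells, 175 of 183 in TBI+PBS and 124 of 127 in sham.

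The share of microglia-like cells with an Il1rl1 UMI was 3.39% in TBI+IL-25 (2.92% to 3.90%), 4.02% in TBI+PBS (3.44% to 4.67%) and 2.13% in sham (1.64% to 2.71%). Thinned to 1000 UMIs, leaving out 162, 52 and 77 cells, it was 0.510% (0.336% to 0.741%), 0.766% (0.521% to 1.09%) and 0.693% (0.424% to 1.07%), and these overlapped. Astrocyte-like cells held an Il1rl1 UMI in 0.0748% of TBI+IL-25, 0.0663% of TBI+PBS and 0.0304% of sham cells, so the microglial share was above theirs in each library. Nearly every positive cell held a single UMI: 183 of 195 in TBI+IL-25, 165 of 183 in TBI+PBS and 112 of 127 in sham. The highest count in 1 cell was 4, 4 and 3.

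Within microglia-like cells, no cluster stood clearly apart as the bearer of the receptor. The largest cluster was 5 in TBI+IL-25, with 2069 of 5459 cells, 4 in TBI+PBS, with 1500 of 4100, and 0 in sham, with 2495 of 2962. In cluster 0 Il1rl1 stood at 7.54 CPM in 129 TBI+IL-25 cells, 7.79 CPM in 792 TBI+PBS cells and 6.48 CPM in 2495 sham cells. In cluster 5 it stood at 7.76 CPM in TBI+IL-25 and 9.75 CPM in TBI+PBS, and in cluster 8 at 6.07, 9.46 and 10.9 CPM in TBI+IL-25, TBI+PBS and sham. In cluster 4 it stood at 8.17, 7.50 and 2.67 CPM, the last from 2 UMIs in 162 sham cells. Cluster 22 had no Il1rl1 UMI in its 50 TBI+IL-25 cells (up to 9.97 CPM), 18 TBI+PBS cells (up to 30.6 CPM) and 15 sham cells (up to 38.3 CPM). Cluster 13 stood at 1.14 CPM in TBI+IL-25 (0.0289 to 6.35) and 3.38 CPM in TBI+PBS (0.697 to 9.88), from 1 and 3 UMIs. Of the 13 ratios between libraries within a cluster, none had an interval that left out 1.

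**Figure D5:**
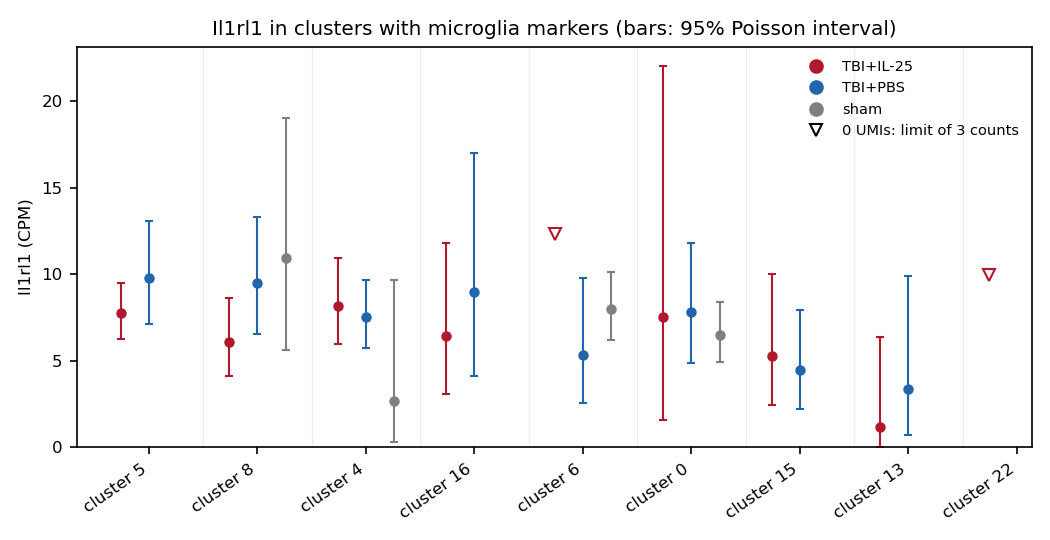
Il1rl1 level in CPM (vertical axis) in clusters with microglia markers (horizontal axis) with at least 50 cells in a library; points are library sums in TBI+IL-25, TBI+PBS and sham, bars are 95% Poisson intervals and open triangles are the limit of 3 counts for 0 UMIs, as in the 75 TBI+IL-25 cells of cluster 6. Intervals overlap within every cluster that has more than 1 library with a UMI, and the TBI+IL-25 point of cluster 13, at 1.14 CPM, is the lowest with a UMI.

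Il1rl1-positive microglia-like cells (185 in TBI+IL-25, 165 in TBI+PBS and 63 in sham) held more Il1b, the transcript of another IL-1 family cytokine. Il1b stood at 271 CPM with and 182 CPM without Il1rl1 in TBI+IL-25, a ratio of 1.49 (1.32 to 1.68). In TBI+PBS it stood at 137 CPM with and 99.8 CPM without, a ratio of 1.37 (1.16 to 1.60). In sham it stood at 41.3 CPM with and 11.7 CPM without, a ratio of 3.52 (1.77 to 6.37), and 1 cell held 58.3% of the UMIs with. In all, 11 genes had intervals above 1 in the 3 libraries. Adamts1, a secreted protease, had ratios of 1.30, 1.17 and 2.41, Fam111a 1.29, 1.25 and 1.89, Cd52 1.13, 1.18 and 1.35, and Ccnd1 (cyclin D1) 1.18, 1.27 and 1.54, in TBI+IL-25, TBI+PBS and sham. Actb, Rps12, Rplp0, Tmsb4x and mt-Nd1 had ratios between 1.02 and 1.21. With cells thinned to 1000 UMIs before the split, 0 genes had an interval above 1 in every library that qualified. Lower with Il1rl1 were P2ry12 (0.900, 0.752 and 0.929), Psap (0.929, 0.793 and 0.900), H3f3b (0.944, 0.932 and 0.838) and Sparc (0.914, 0.897 and 0.927).

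In cluster 6 of sham, with 61 Il1rl1-positive cells, the leading genes were Il1b (6.83; 3.04 to 13.9), Peg10 (4.77), Gm43445 (6.22), Gm43411 (5.79) and Gm37968 (5.33). There 1 cell held 80.0% of the Il1b UMIs and 70.6% of the Peg10 UMIs of positive cells.

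Outside these cells Il1rl1 was counted in 10 TBI+IL-25, 8 TBI+PBS and 3 sham cells of several classes, of which 5, 3 and 1 were astrocyte-like. T cell-like cells had the highest level, 20.4 CPM in TBI+IL-25 (7.50 to 44.5), 13.6 CPM in TBI+PBS (3.70 to 34.7) and 0 in sham, but these were 6 UMIs in 2 of 92 cells, 4 UMIs in 1 of 65 and none of 14 cells. The TBI+PBS cell, with 4 UMIs, held 8 of the 9 T cell markers and 6 of 6 regulatory T cell markers, Foxp3 among them. Foxp3 was counted in 0 T cell-like cells of TBI+IL-25, 4 of TBI+PBS and 0 of sham, and 1 of the 4 held Il1rl1. The TBI+IL-25 cells, with 4 and 2 UMIs, held 6 and 7 of the 10 type 2 innate lymphoid cell markers, including Gata3, Rora, Hs3st1 and Arg1, and neither held Cd3e or Trac. The cell with 4 UMIs also held the T cell markers Cd3g and Trbc2, and the other held none of the 9. One of these held Il17rb, a chain of the IL-25 receptor, and the other Il5 and Areg, products of type 2 lymphoid cells. They were the 2 T cell-like cells of TBI+IL-25 with Gata3 and without Cd3e or Trac, and both held Il1rl1; TBI+PBS had 4 such cells, of which 0 held it.

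A monocyte or macrophage-like cell of TBI+IL-25 with 2 Il1rl1 UMIs held 6 of the 10 mast cell or basophil markers, Cpa3, Fcer1a, Ms4a2, Hdc, Gata2 and Mcpt8, together with 8 of 10 microglia markers. It also held the 1 Il13 UMI of the whole library. Of the 10 TBI+IL-25, 8 TBI+PBS and 3 sham positive cells outside microglia-like cells and cluster 6, 6, 4 and 3 held 6 or more microglia markers. Oligodendrocyte-like cells held 2 Il1rl1 UMIs in TBI+IL-25, in 1 cell with 10 microglia markers, and none in TBI+PBS (up to 1.38 CPM) or sham (up to 6.52 CPM). Both genes were counted in the same cell in 11 TBI+IL-25, 3 TBI+PBS and 0 sham cells.

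Il1rap, the co-receptor shared by ST2 and other IL-1 family receptors, was counted in the source cells. In oligodendrocyte-like cells it stood at 371 CPM in TBI+IL-25, 208 CPM in TBI+PBS and 174 CPM in sham, 2.13-fold higher in TBI+IL-25 than in sham (1.70 to 2.71) and 1.78-fold higher than in TBI+PBS. It was the 1 gene of 7 passing the count minimum of 20 UMIs, of 11 in the receptor and signalling list, to be at least 2-fold higher than in sham, where 16.0% of 9470 genes tested were, and the median log2 ratio of those 7 was 0.67 beside 0.11 over all genes tested. In astrocyte-like cells Il1rap stood at 27.6 CPM in TBI+IL-25, 11.6 CPM in TBI+PBS and 5.76 CPM in sham. It was 2.39-fold higher in TBI+IL-25 than in TBI+PBS (2.05 to 2.78), where 5.04% of 16780 genes tested were at least 2-fold higher, and 4.79-fold higher than in sham (3.81 to 6.08), where 12.2% of 16557 were. TBI+PBS over sham was 2.01 (1.56 to 2.60), where 7.26% of 16567 were. In microglia-like cells it stood at 9.82, 6.45 and 4.49 CPM, 2.19-fold higher in TBI+IL-25 than in sham (1.61 to 3.02).

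Of the signalling genes downstream of the receptor, Myd88, the adaptor, was higher in astrocyte-like cells of both TBI libraries, at 27.5 CPM in TBI+IL-25, 15.3 CPM in TBI+PBS and 4.81 CPM in sham. Its ratios were 5.70 for TBI+IL-25 over sham (4.45 to 7.40) and 3.19 for TBI+PBS over sham (2.46 to 4.18). Of the 8 list genes passing the count minimum in astrocyte-like cells, Myd88 and Il1rap were the 2 at least 2-fold higher than in sham. This held for TBI+IL-25, where 12.2% of 16557 genes were, and for TBI+PBS, where 7.26% of 16567 were. For TBI+IL-25 over TBI+PBS 1 of 8 was at least 2-fold higher, where 5.04% of 16780 genes were. The median log2 ratio of the 8 was 0.05 beside -0.28 over all genes for TBI+IL-25 over sham, and 0.18 beside -0.06 for TBI+PBS over sham. In microglia-like cells, where Il1rl1 itself was counted, Myd88 stood at 44.1, 47.9 and 45.3 CPM in TBI+IL-25, TBI+PBS and sham. Irak3, an inhibitory IRAK family member, stood there at 4.51, 2.36 and 1.98 CPM, 2.28-fold higher in TBI+IL-25 than in sham (1.44 to 3.77). With Il1rap it made 2 of 10 passing in that comparison, where 11.9% of 14883 genes tested were at least 2-fold higher, with a median of 0.04 beside -0.20. No member of the list passed 2-fold between TBI+PBS and sham in microglia-like cells, among 11 passing the count minimum, while 7.12% of 14326 genes were at least 2-fold higher. Sigirr, which dampens ST2 signalling, had 3, 15 and 9 UMIs in the class.

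In the thinner classes, Irak1 stood at 88.8 CPM in TBI+PBS and 30.4 CPM in sham among fibroblast-like cells, with 1 sham UMI and an interval of 0.472 to 121 around the ratio of 2.92, where 27.5% of genes were at least 2-fold higher. Tollip, an inhibitor of IRAK1, stood at 21.9 CPM in TBI+IL-25, 47.8 CPM in TBI+PBS and 78.0 CPM in sham among ependymal-like cells, 0.280-fold in TBI+IL-25 over sham (0.107 to 0.659), where 6.97% of genes were at least 2-fold lower, and 0.457-fold in TBI+IL-25 over TBI+PBS (0.173 to 1.09), where 5.52% were. In cluster 6, Il1rap stood at 24.7 CPM in TBI+IL-25, 1.07 CPM in TBI+PBS and 4.36 CPM in sham, from 6, 2 and 37 UMIs. There Irak1 and Irak2 were 0.473-fold and 0.394-fold in TBI+IL-25 over sham, where 7.48% of genes were at least 2-fold higher and 19.2% at least 2-fold lower. Irak2 was 0.372-fold in TBI+IL-25 over TBI+PBS, where 4.82% were at least 2-fold higher and 12.4% at least 2-fold lower. Il1rap was 0.245-fold in TBI+PBS over sham (0.0286 to 0.948), where 1.68% were at least 2-fold higher and 3.68% at least 2-fold lower. Traf6 had 1 UMI in the TBI+IL-25 cells of cluster 6, and its ratio interval of 0.00851 to 1.93 included 1.

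Receptor genes of the same family that neighbour Il1rl1 on chromosome 1 were set beside it. Il1r1, the IL-1 receptor, stood at 37.0 CPM in TBI+IL-25, 22.7 CPM in TBI+PBS and 3.66 CPM in sham astrocyte-like cells, 10.1-fold higher in TBI+IL-25 than in sham (7.68 to 13.6) and 6.21-fold higher in TBI+PBS than in sham (4.68 to 8.39). Il1r2, the decoy IL-1 receptor, had 85 and 68 UMIs in TBI+IL-25 and TBI+PBS astrocyte-like cells and 0 in sham. Il18rap, a chain of the IL-18 receptor, stood at 6.43 CPM in TBI+IL-25, 4.26 CPM in TBI+PBS and 0.270 CPM in sham microglia-like cells, with ratios of 23.8 (8.03 to 117) and 15.8 (5.25 to 77.9) over sham. In astrocyte-like cells it stood at 1.24, 0.573 and 0.0678 CPM. Il1r1 in microglia-like cells stood at 1.95, 0.946 and 0.629 CPM. Over the same libraries Il1rl1 in microglia-like cells stayed between 6.47 and 7.83 CPM. The neighbours above were named because they passed 2-fold, so this contrast follows in part from that choice. Among microglia-like cells, 3 of the 5 listed neighbours passed the count minimum. Of these, 2 were at least 2-fold higher in TBI+IL-25 than in sham, where 11.9% of genes were. For TBI+PBS over sham it was 1, where 7.12% of genes were. Il1rl2, listed but not named above, stood at 8.45, 6.66 and 9.59 CPM over all TBI+IL-25, TBI+PBS and sham cells.

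Genes known to process or release IL-33 had ratios past 2-fold in both directions, and the first named are ones that passed. In astrocyte-like cells, 2 of 6 passing the count minimum were at least 2-fold higher and 1 lower in TBI+IL-25 than in sham. Their median log2 ratio was 0.05 beside -0.28 over all genes. For TBI+PBS over sham 2 of 7 were higher, where 7.26% of 16567 genes were at least 2-fold higher, with a median of 0.51 beside -0.06. In microglia-like cells 1 of 7 was higher in TBI+PBS and 1 of 7 lower in TBI+IL-25 than in sham. Casp8, an initiator caspase, was 2.29-fold higher in TBI+IL-25 than in sham astrocyte-like cells (1.85 to 2.84), where 12.2% of genes were at least 2-fold higher. Gsdmd, a pore-forming protein, was 0.402-fold in TBI+IL-25 over sham in astrocyte-like cells (0.245 to 0.649), where 23.1% of genes were at least 2-fold lower. In microglia-like cells it stood at 49.6 CPM in TBI+IL-25 and 102 CPM in sham, 0.486-fold (0.449 to 0.526), where 15.0% of genes were at least 2-fold lower. Capn1, a calpain, stood at 0.461, 1.82 and 0.610 CPM in TBI+IL-25, TBI+PBS and sham astrocyte-like cells, from 10, 38 and 9 UMIs. Capn2 was 2.20-fold higher in TBI+PBS than in sham microglia-like cells (1.58 to 3.14), where 7.12% of genes were at least 2-fold higher. Mast cell and neutrophil proteases that cut IL-33 were rare over whole libraries. Ctsg had 1, 2 and 0 UMIs, Elane 0, 5 and 0 and Cma1 0, 5 and 8 in TBI+IL-25, TBI+PBS and sham, while Tpsab1 was not counted in any library. Cpa3, a mast cell marker that was also listed, had 6, 0 and 0 UMIs.

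Other alarmins and their receptors were set beside the pair. Il25, the transcript of the cytokine given, had 24 UMIs in TBI+IL-25, 6 in TBI+PBS and 15 in sham over all cells, and Tslp had 54, 46 and 63. Il1a, an alarmin of the IL-1 family, stood at 243 CPM in TBI+IL-25, 196 CPM in TBI+PBS and 84.6 CPM in sham microglia-like cells, with ratios over sham of 2.88 (2.69 to 3.08) and 2.31 (2.16 to 2.48). Hspa8 was 2.11-fold higher in TBI+PBS than in sham microglia-like cells. S100a9, a neutrophil alarmin, stood at 1.99, 0.344 and 0.270 CPM in microglia-like cells and at 1.98, 0.525 and 0.0678 CPM in astrocyte-like cells of TBI+IL-25, TBI+PBS and sham, and S100a8 at 1.23, 0.516 and 0 CPM and 1.52, 0.621 and 0.203 CPM. Both are neutrophil genes, and neutrophil-like cells numbered 47 in TBI+IL-25 and 12 in TBI+PBS; whether their RNA gave these low levels was not tested. In fibroblast-like cells S100a8 and S100a9 had 0 UMIs in 25 TBI+IL-25 cells, 101 and 241 UMIs in 23 TBI+PBS cells and 0 in 7 sham cells. The spread of these UMIs over cells is not given, and whether neutrophil RNA gave them was not tested either. Anxa1, annexin A1, was 4.69-fold higher in TBI+IL-25 than in sham ependymal-like cells (2.21 to 11.5), 0.203-fold in TBI+IL-25 over TBI+PBS in astrocyte-like cells (0.0502 to 0.611), where 11.9% of genes were at least 2-fold lower, and had 54 UMIs in TBI+PBS and 0 in sham fibroblast-like cells.

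Crlf2, the receptor chain for TSLP, stood at 121 CPM in TBI+IL-25 and 57.7 CPM in TBI+PBS microglia-like cells, 2.10-fold higher (1.97 to 2.24). In astrocyte-like cells it was 2.13-fold higher in TBI+IL-25 than in TBI+PBS (1.77 to 2.57) and 2.20-fold higher than in sham (1.78 to 2.74), and in cluster 6 it was 3.25-fold higher than in sham. Il7r, its partner chain, was lower in microglia-like cells of both TBI libraries, at 20.9 CPM in TBI+IL-25, 24.1 CPM in TBI+PBS and 78.7 CPM in sham, with ratios over sham of 0.265 and 0.306, where 15.0% and 8.24% of genes were at least 2-fold lower. Tlr2, a Toll-like receptor, stood at 225, 201 and 90.9 CPM in the same cells. In astrocyte-like cells Tlr4 was 2.36-fold higher in TBI+IL-25 than in sham (1.67 to 3.41). In oligodendrocyte-like cells Il17ra, a chain of the IL-25 receptor, stood at 19.0 CPM in TBI+IL-25 and 6.52 CPM in sham from 53 and 3 UMIs, and its ratio of 2.92 had an interval of 0.945 to 14.6. Crlf2 there had 22 and 1 UMIs, and Il1a and Tlr2 had 29 and 21 UMIs in TBI+IL-25 and 0 in sham.

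The type 2 cytokines Il4, Il5, Il9 and Il13, known products of lymphocytes that respond to IL-33, had at most 4 UMIs each in any library. Over whole libraries Il4 had 4, 1 and 0 UMIs, Il5 2, 2 and 0, Il13 1, 0 and 0, Il9 none, and Il10 2, 17 and 0 in TBI+IL-25, TBI+PBS and sham. Areg, amphiregulin, had 10, 89 and 0 UMIs, of which 4 and 68 were in monocyte or macrophage-like cells. Calca, which encodes the peptide CGRP and is also made by lymphoid cells, stood at 13.1 CPM in TBI+IL-25, 7.69 CPM in TBI+PBS and 0.136 CPM in sham astrocyte-like cells, from 284, 161 and 2 UMIs. Csf2 had 6 and 15 UMIs and Il2 15 and 6 UMIs in TBI+IL-25 and TBI+PBS astrocyte-like cells, and both ratio intervals included 1.

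Genes whose level followed Il33 across 33 sums of class and library with at least 20 cells are given as a description. The points share libraries and depth and are not independent. By Pearson's r of log2(CPM + 1), the nearest was Unc5c, a netrin receptor, at 0.91, then Abca8b (a lipid transporter) at 0.87 and Tmem117 at 0.85. Gstm6, Larp6, Hhip, Ncam2, Slc6a9 (a glycine transporter), Snx33 and Prrt1 followed, down to 0.83. For Il1rl1 the nearest was Vipr1, a receptor for vasoactive intestinal peptide, at 0.84, then Xlr4b and Il27 at 0.82, followed by Xlr4a, Gm37170, Rnf17, Gm11425, Rnu12, Klhl35 and Pdcd1, down to 0.76. At these low counts the likeness of Il1rl1 rests on few UMIs.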

How the data were processed

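The members and gene lists were chosen with earlier results of these data known. The deposited matrices hold raw UMI counts per gene and barcode, without normalization, made by the authors with Cell Ranger 7.2.0 for TBI+IL-25 and 7.1.0 for TBI+PBS and sham, per the file headers. GRCm39 is the genome build in the submitters' processing notes, which also list Seurat 4.4.0, Cell Ranger 7.2.0 and bcl2fastq 5.0.1. How barcodes were selected is not given in the sources used here, and the lowest total was 500 or 501 UMIs. The labels' 8000 expected cells stand beside 14222, 10643 and 8939 barcodes in TBI+IL-25, TBI+PBS and sham.

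Cells were dropped below 500 UMIs or 300 genes, or above 20% mitochondrial UMIs (55, 41 and 18 removed). Scrublet scores over 0.2, a threshold set after the scores were seen, removed 635, 303 and 211 doublets (4.46%, 2.85% and 2.36%). Cells were clustered jointly on 2000 variable genes with 30 principal components, 15 neighbours and Leiden resolution 1, without integration. A cluster took the class with the largest share of markers present. It stayed unnamed with under 3 markers, with more markers of another class among its top 10 genes, or when shallow without own markers there. Cluster 6 stayed unnamed through Il7r, a marker on the type 2 innate lymphoid cell list.

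UMIs were summed per class and library and given as CPM with exact Poisson intervals. Ratios have exact conditional binomial intervals and shares Clopper-Pearson intervals, all 95%. Where no UMI was counted, the level that 3 counts per library and class would give is the limit. Sums, not cells, were compared, and no p-value was computed. Genes tested had at least 20 UMIs in the 2 libraries of a class together, and list medians set genes at 0 to that limit. Thinning drew 1000 UMIs per cell. Named genes were the 2 members, list genes past 2-fold in classes with at least 20 UMIs of a member (at most 6 per list and class), the 10 genes with the highest lower bound in cells with against without a member (5 with 1 library), and the 10 with the highest correlation. The 5 lowest were added after the values were seen. A few genes that this rule names are not reported here. The free-RNA share of a class was the median, over markers of the other classes, of their CPM in the class over that in the library, and it multiplied the library's Il33 CPM. Interval code was tested on simulated data. Alternatives are in the closing section. Tools were Python 3.11.15, scanpy 1.11.5, leidenalg 0.10.2, python-igraph 0.11.9, Matplotlib 3.10.9, scikit-learn 1.9.0, pandas 2.3.3, SciPy 1.17.1 and NumPy 2.4.6.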

Additional observations from a re-analysis of the deposited data

Results flagged for a closer look

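Il33 in fibroblast-like cells went the opposite way from 2 other groups in TBI+PBS over sham. Its ratio was 0.446 (0.241 to 0.877) there, against 1.22 (1.09 to 1.37) in oligodendrocyte-like cells and 3.02 (1.07 to 8.02) in cluster 6. The fibroblast value rests on 47 UMIs in 23 TBI+PBS cells and 14 UMIs in 7 sham cells, and that of cluster 6 on 8 and 12 UMIs. With cells weighed equally the fibroblast-like levels were 404 CPM in TBI+PBS and 320.0 CPM in sham, the opposite direction. The differences between these classes were not tested.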

How the results depend on the processing

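Of 117 ratios recomputed under other settings, 82 stayed within the counting interval of the value given. In all, 15 lay on the other side of 1, of which 3 belonged to values whose interval had left out 1 and 12 to values whose interval had included it. For Il33 in oligodendrocyte-like cells, keeping doublets gave 3.16 for TBI+IL-25 over TBI+PBS and 3.66 for TBI+IL-25 over sham, weighing cells equally gave 3.08 for the first, and leaving out cells with microglia UMIs gave 3.22. Without the 5 highest cells the ratios were 4.16, 6.76 and, for TBI+PBS over sham, 1.63; these cells are 0.778%, 2.30% and 11.1% of the class in TBI+IL-25, TBI+PBS and sham, so ratios over a smaller class rise by construction. Without the highest 5% of cells they were 4.24, 4.33 and 1.02. In cells without Klk6 or Hopx they were 3.19, 2.90 and 0.909, the last a change of direction.

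For Il33 in astrocyte-like cells, TBI+IL-25 over TBI+PBS was 1.14 with cells weighed equally and 1.42 with median-of-ratios size factors, which gave 1.56 over sham. Within clusters 1, 2, 7, 10 and 12 TBI+IL-25 over TBI+PBS was 1.24, 1.30, 1.49, 1.12 and 1.31. Within clusters 1, 2, 7 and 12 TBI+IL-25 over sham was 1.01, 0.834, 1.16 and 0.958, with a change of direction in clusters 2 and 12, and TBI+PBS over sham was 0.820, 0.639, 0.778 and 0.730, the other side of 1 from the class in all 4.

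For Il1rl1 in microglia-like cells, TBI+IL-25 over TBI+PBS was 0.642, 0.337, 1.19 and 0.717 within clusters 8, 13, 15 and 16. TBI+IL-25 over sham was 3.06 and 0.557, and TBI+PBS over sham 2.81 and 0.867, within clusters 4 and 8. Every one of these Il1rl1 intervals included 1, on 1 to 59 UMIs.

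Counts of genes denser in positive cells moved most. For Il33 in microglia-like cells the count was 12, against 730 with doublets kept and 160 after thinning, and for Il1rl1 it was 11, against 23 and 0. For Il33 in astrocyte-like cells it was 58, against 8 after thinning and 20, 2, 13, 9, 127 and 8 within clusters 1, 2, 7, 9, 10 and 12. For oligodendrocyte-like cells it was 308, against 52 after thinning. The cause of these changes was not tested.

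No paired analysis was possible because each group has 1 library, and for the same reason no replicate could be left out. Sham, with 45 oligodendrocyte-like and 7 fibroblast-like cells, limits the precision of every ratio over sham in those classes. Il1rl1 was counted at 210, 203 and 143 UMIs in TBI+IL-25, TBI+PBS and sham, so smaller differences were not detectable at this depth. Settings chosen after seeing the data were the added microglia cluster, the shallow clusters, the cells with microglia UMIs, the highest cells (ependymal-like ones included), Klk6 or Hopx, and levels within single clusters.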
